A study of Mus musculus with 28 samples.

Results

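Basal mammary cells that expressed mutant PIK3CA for 10 months were compared with normal basal cells sorted at the same time and through the same gate. The 4 arrays were those titled Basal-K5PIK-10m (2 arrays, called K5-PIK here) and Basal-K5YFP-10m (2 arrays, called K5-YFP), of 28 arrays in all. K5-PIK cells came from K5CREERT2/PIK3CA-H1047R/RosaYFP mice and K5-YFP cells from K5CREERT2/RosaYFP mice. Both carried K5CREERT2, a tamoxifen-inducible Cre under the keratin 5 promoter, which is active in basal cells, and RosaYFP, a fluorescent reporter that Cre switches on. All mice were female and received 3 doses of 5 mg tamoxifen, the first at 4 to 5 weeks of age. YFP-positive basal cells were isolated 10 months later by flow cytometry from glands dissociated with collagenase and hyaluronidase. The labels give no strain. Nor do they say whether the 2 arrays of a group hold RNA of different mice, and the p-values thus refer to array-to-array spread, which may be technical.

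PIK3CA encodes the catalytic subunit of PI3-kinase, which makes the membrane lipid that activates the kinase AKT. AKT signals to mTORC1, the kinase complex that drives ribosome production and protein synthesis, and keeps FOXO transcription factors out of the nucleus. The H1047R substitution lies in the kinase domain and makes the enzyme active with little growth factor. Basal cells of the mammary gland line the outside of the ducts, contract to expel milk, and express keratins 5 and 14.

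The values are log2 expression values, and a difference is K5-PIK minus K5-YFP on that scale, given ± SE with limma's adjusted p. A gene was called at an adjusted p under 0.05 over 13150 tested genes. The 2 arrays correlated across these genes at 0.975 in K5-PIK cells and 0.986 in K5-YFP cells, and arrays of different genotype correlated at 0.927 to 0.963. For Pik3ca (gene identifier 18706) the arrays gave 7.75 and 8.10 in K5-PIK cells, against 8.29 and 8.11 in K5-YFP cells (-0.27 ± 0.17, adjusted p = 0.269). The groups met at 8.10 and 8.11, closer than the spread within either. Whether this probe set reads the mutant transgene is not given in the sources used here, so it does not check the genotype.

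The labelled cell type was checked against its defining markers. Krt5, the keratin whose promoter drives Cre, measured 11.55 and 11.81 in K5-PIK cells, against 11.45 and 11.54 in K5-YFP cells (0.19 ± 0.32). Its partner Krt14 measured 11.74 and 11.72, against 11.87 and 11.92 in K5-YFP cells (-0.17 ± 0.31). Trp63, the transcription factor of basal epithelium, measured 9.68 and 10.32, against 9.64 and 9.41 in K5-YFP cells (0.47 ± 0.31). Neither these genes nor the smooth muscle actin Acta2 (11.36 and 11.35, against 11.61 and 11.60 in K5-YFP cells) passed the test. Foxa1, which marks hormone-sensing luminal cells, was at 3.76 and 3.72 in K5-PIK cells, against 3.84 and 4.96 in K5-YFP cells. The keratins Krt8 (11.34 and 11.03, against 10.78 and 11.17 in K5-YFP cells) and Krt18 (10.34 and 9.99, against 9.63 and 10.29) were well detected in both groups and were not called. The receptor Lgr5 was not called either (8.42 and 9.14, against 8.95 and 8.84 in K5-YFP cells).

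Of the 13150 genes, 2143 were called (16.3%), 1089 higher in K5-PIK cells (8.28%) and 1054 lower (8.02%). At least 2-fold differences were found for 985 of the called genes (7.49% of those tested). The split by direction depended on the processing. It was 1499 higher and 977 lower under quantile normalization, and 1103 and 1302 with the mean of a gene's probe sets. On 62.1% of genes the K5-PIK and K5-YFP arrays did not overlap, and the median difference over all genes was 0.09. Non-overlap of 2 against 2 arrays was thus the more common outcome and by itself sets no gene apart. The number called depended on single arrays. Without K5-PIK replicate 2 it was 367, without K5-YFP replicate 1 it was 343, and without K5-YFP replicate 2 it was 1124. The calls that held with each of the 4 arrays left out in turn numbered 216, of which 82 were higher and 134 lower.

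**Figure D1:**
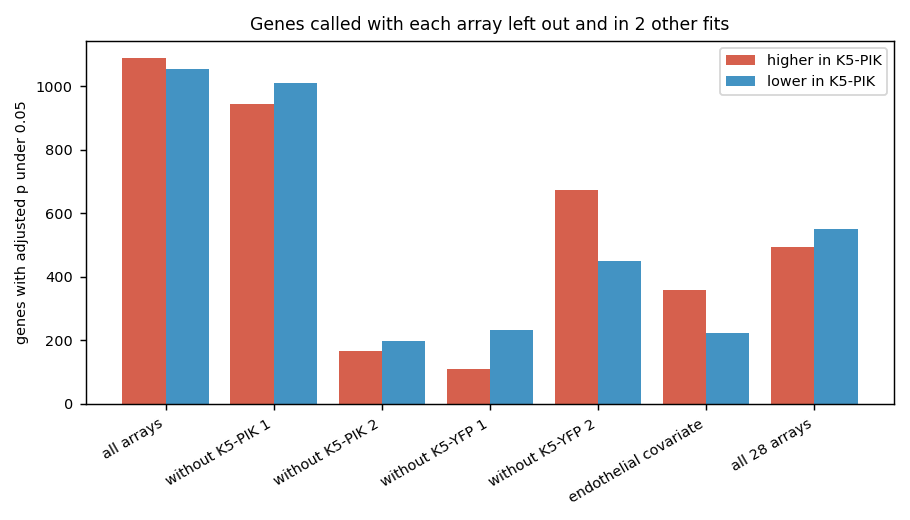
Number of genes with an adjusted p under 0.05 (vertical axis), higher (red bars) or lower (blue bars) in K5-PIK basal cells, in the fit with all arrays, with each array of the comparison left out, with the endothelial marker mean as a covariate, and in a fit of all 28 arrays. The total was 2143 with all arrays and 343 to 1124 without K5-PIK replicate 2, K5-YFP replicate 1 or K5-YFP replicate 2.

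Markers of endothelial cells moved with genotype. The mean of 16 endothelial markers was 5.26 and 4.43 in K5-PIK cells, against 5.79 and 6.67 in K5-YFP cells, and on the luminal arrays it lay between 4.38 and 5.51. All 15 tested markers were on the negative side, with a median of -1.60, and 7 fell, against 8.02% lower over all genes. Pecam1, an adhesion molecule of endothelial junctions, measured 7.03 and 5.30 in K5-PIK cells, against 7.82 and 8.69 in K5-YFP cells (-2.09 ± 0.62, adjusted p = 0.0387). The vascular cadherin Cdh5 fell by 2.49 ± 0.72 on the log2 scale, the receptor Tie1 by 2.51 ± 0.70 and the sialomucin Emcn by 2.06 ± 0.53. Among the 4 arrays K5-YFP replicate 2 was the highest and K5-PIK replicate 2 the lowest for the list mean, and no endothelial marker stayed called without either of them. Fewer cells of a type and less RNA per cell cannot be told apart in these sorted populations. With the endothelial mean as a covariate 581 genes were called, and 489 of them were among the 2143. Together with the leave-outs this kept 178 genes, 75 higher and 103 lower, which are called robust below. Robust covers these checks only. Under every alternative fit of the comparison 130 genes were called, 47 higher and 83 lower.

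Over all genes 16.3% were called, and the marker lists of other cell types are set beside that share. Of 14 immune markers 1 rose, the macrophage scavenger receptor Cd68 (0.94 ± 0.26). Of 10 fibroblast markers limma called 0, and 1 had an unadjusted p under 0.05. Of 6 pericyte markers 2 were called (33.3%). Anpep, an aminopeptidase that other cells carry as well, rose by 2.02 ± 0.29, and the G-protein regulator Rgs5 fell by 1.88 ± 0.56. Among the 12 adipocyte, erythroid and Schwann cell markers limma called 0, and 2 had an unadjusted p under 0.05.

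Among the 15 largest falls, Bcat1 (gene identifier 12035) stood first. This cytosolic enzyme, which transfers the amino group of branched-chain amino acids, measured 4.81 and 3.46 in K5-PIK cells, against 8.15 and 7.76 in K5-YFP cells (-3.82 ± 0.33, adjusted p = 0.000227). Ereg, the EGF receptor ligand epiregulin, measured 4.55 and 2.71, against 6.94 and 7.16 in K5-YFP cells (-3.42 ± 0.62, adjusted p = 0.00572). Il6, the inflammatory cytokine interleukin 6, measured 4.14 and 3.56, against 6.49 and 6.69 in K5-YFP cells (-2.74 ± 0.34, adjusted p = 0.0015). For all of these genes the highest K5-PIK array lay more than 2 log2 units below the lowest K5-YFP array. Nipal4, a magnesium transporter family member, measured 4.73 and 4.83 in K5-PIK cells, against 7.12 and 7.56 in K5-YFP cells (-2.56 ± 0.33). Sh2d5, an SH2 domain adaptor, measured 6.37 and 4.69, against 8.99 and 8.79 in K5-YFP cells (-3.36 ± 0.66), and the polarity scaffold Mpp7 measured 5.43 and 4.09, against 7.79 and 7.54 (-2.90 ± 0.51). In both genes the 2 K5-PIK arrays differed by over 1 log2 unit, and both arrays were below every K5-YFP array.

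Several of the other large falls are genes known from endothelial cells, and they moved with the endothelial list. The sphingosine phosphate receptor S1pr1 fell by 3.01 ± 0.66, Cd93 by 2.80 ± 0.50, the selectins Sele by 2.59 ± 0.58 and Selp by 2.53 ± 0.79, and thrombomodulin, Thbd, by 2.53 ± 0.51. Ctla2a (-2.72 ± 0.68), the adrenomedullin receptor subunit Ramp3 (-2.70 ± 0.61) and Oaf (-2.87 ± 0.54) fell too. Ramp3 and Oaf did not follow the endothelial list in the PIK against YFP contrast of basal-gate cells at 8 weeks, described below. They were on the positive side there (0.61 and 1.03, neither called), while the endothelial median was -1.06. Of the 15 largest falls, 3 stayed called with the covariate, namely Bcat1, Il6 and Nipal4, and these 3 are also robust.

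The largest rise was that of Ephb6, an Eph receptor without kinase activity, at 7.34 and 7.46 in K5-PIK cells, against 4.67 and 5.00 in K5-YFP cells (2.57 ± 0.33, adjusted p = 0.00172). Gpa33, an immunoglobulin-family surface antigen, measured 7.09 and 7.60, against 4.91 and 5.20 in K5-YFP cells (2.29 ± 0.21, adjusted p = 0.000227). Both groups were tight for these 2 genes, with over 1.5 log2 units between them. Cyp2d22, a cytochrome P450, measured 8.67 and 8.22 in K5-PIK cells, against 5.76 and 6.40 in K5-YFP cells (2.36 ± 0.33). Ly6k, a GPI-anchored surface protein, measured 7.57 and 6.68, against 4.53 and 5.11 (2.31 ± 0.33), and Bbox1, the last enzyme of carnitine synthesis, 5.40 and 6.38, against 3.47 and 3.83 in K5-YFP cells (2.24 ± 0.33). These 5 are the robust genes among the 15 largest rises.

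The other 10 rose by 2.16 to 2.53. They were Lrrc75b (2.53 ± 0.55), the zinc-finger gene Zfp949 (2.51 ± 0.58), the Toll-like receptor co-factor Tril (2.46 ± 0.44), 1600014C10Rik (2.43 ± 0.42) and the guanylate cyclase subunit Gucy1a1 (2.34 ± 0.52). Fam20a, a pseudokinase of the secretory pathway (2.31 ± 0.40), the deacetylase Hdac11 (2.29 ± 0.68), the peptide hormone precursor Enho (2.28 ± 0.63), the myosin-binding gene Mybph (2.17 ± 0.52) and the peptide transporter Slc15a2 (2.16 ± 0.62) completed them. With the covariate, 9 of the 15 largest rises stayed called.

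**Figure D2:**
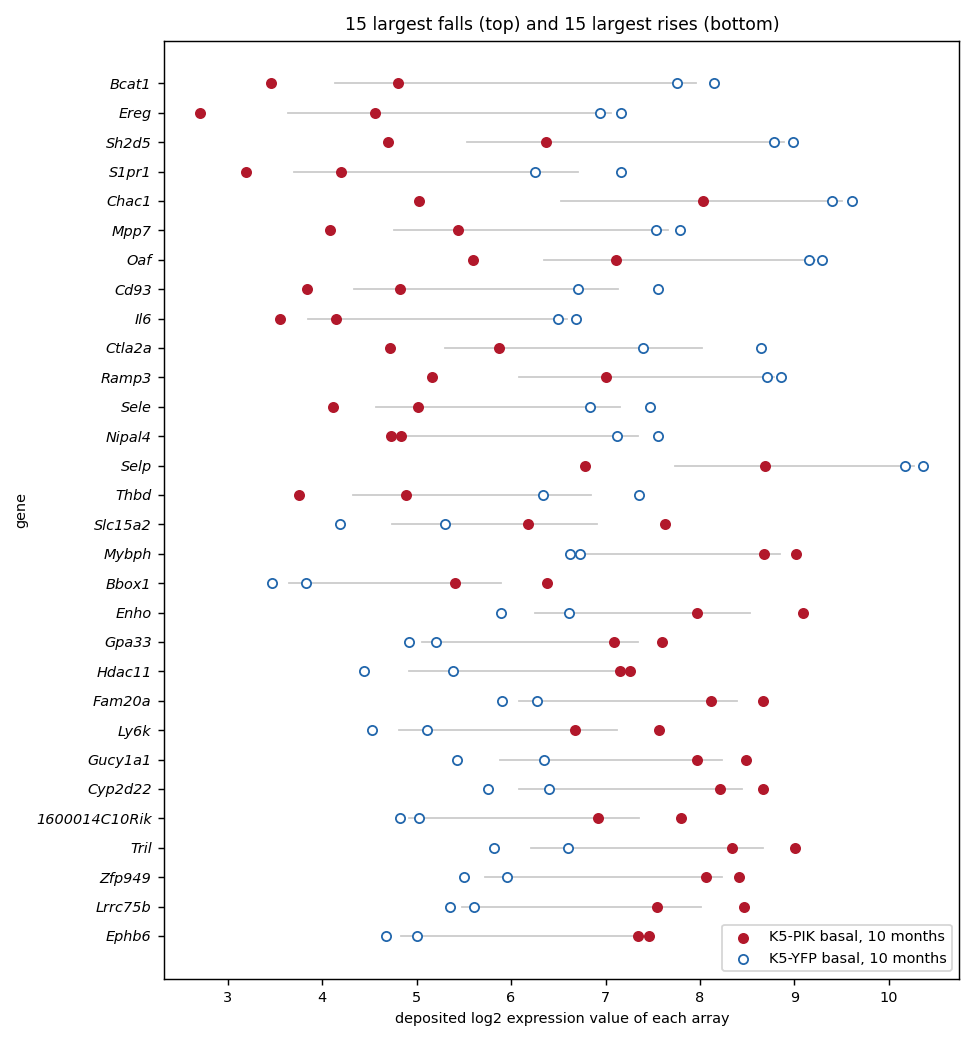
Log2 value of each array (horizontal axis) for the 15 largest falls and the 15 largest rises among called genes whose groups did not overlap. Filled red points are the 2 K5-PIK arrays, open blue points the 2 K5-YFP arrays, and grey lines join the group means, which for Bcat1 are 4.13 in K5-PIK cells and 7.95 in K5-YFP cells.

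Most of the tested genes of ribosome production fell. A list of 82 genes of RNA polymerase I and ribosome assembly was compiled after the values of some of its members had been seen, so its count is a description. Of 76 tested members, 44 fell, 1 rose and 31 did not pass the test, against 8.02% lower and 8.28% higher over all genes. Their median difference was -0.89, against 0.09 for all genes, and 71 of 76 were on the negative side. The list mean was 7.54 and 7.22 in K5-PIK cells, against 8.19 and 8.15 in K5-YFP cells, so the groups did not overlap. The count was 11 without K5-PIK replicate 2, 14 without K5-YFP replicate 1, 22 without K5-YFP replicate 2 and 12 with the endothelial covariate.

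The list held 10 robust members, all of them lower. Polr1b, the second-largest subunit of RNA polymerase I, measured 5.55 and 4.96 in K5-PIK cells, against 7.32 and 7.14 in K5-YFP cells (-1.98 ± 0.24, adjusted p = 0.0015). Polr1e, another subunit, measured 4.02 and 4.20, against 5.83 and 5.42 in K5-YFP cells (-1.52 ± 0.24). Ubtf, which recruits the polymerase to ribosomal DNA, measured 7.45 and 7.78, against 8.82 and 8.73 (-1.16 ± 0.20). In each, both K5-PIK arrays were below both K5-YFP arrays by more than the spread within either group. Wdr12, of the complex that processes the large subunit's RNA, measured 5.49 and 5.51, against 7.28 and 7.17 in K5-YFP cells (-1.72 ± 0.22, adjusted p = 0.00171). Dkc1, the pseudouridine synthase of guided RNA modification, measured 8.19 and 8.17, against 9.23 and 9.36 (-1.11 ± 0.16, adjusted p = 0.00233). The remaining robust members were the small-subunit processing factor Utp6 (-1.52 ± 0.23), the nucleolar protein Surf6 (-1.49 ± 0.23), the nucleolar GTPase Gnl3l (-1.62 ± 0.27), Wdr46 (-1.25 ± 0.22) and the ribosomal RNA methyltransferase Bud23 (-1.02 ± 0.18). The 1 member that rose was Taf1b, part of the polymerase I promoter selectivity factor (6.24 and 6.64, against 5.54 and 5.73 in K5-YFP cells, 0.81 ± 0.23). Only 1 gene of the 76 thus went against the direction of the list and passed the test.

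Enzymes that charge transfer RNAs with amino acids, a second list compiled after values were seen, were lower as well. Of 17 tested aminoacyl-tRNA synthetases, 7 fell and none rose, against 8.02% lower over all genes. Their median was -0.72, and 15 were on the negative side. Iars, the isoleucine enzyme, measured 8.34 and 7.92 in K5-PIK cells, against 10.28 and 9.48 in K5-YFP cells (-1.75 ± 0.31, adjusted p = 0.00501). Sars, the serine enzyme, measured 9.41 and 9.56, against 10.51 and 10.25 (-0.90 ± 0.15, adjusted p = 0.00446). The K5-PIK arrays of both genes were below the K5-YFP arrays. Aars (-1.11 ± 0.32) and Yars (-1.22 ± 0.33) fell too. The number that fell was 0 to 2 without K5-PIK replicate 2, K5-YFP replicate 1 or K5-YFP replicate 2.

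Genes of amino acid supply are targets of ATF4, the transcription factor that cells make when amino acids run short or mTORC1 is active. Of 17 tested members, 7 fell, none rose, and 16 were on the negative side, with a median of -1.08. Over all 13150 genes 8.02% fell, and 5487 were on the negative side. The promoters of 4 of the 7 hold the letters TGATGNAA on either strand (TTNCATCA read on the other), which are the core of the element that ATF4 binds with a C/EBP partner. They are shown to describe the list, and a part of ATF4 in these falls was not tested. RefSeq gives these 300 bases, 250 before and 50 after the gene start, on GRCm38.p6, at chr2:119350992-119351291 on the plus strand for Chac1, chr6:7693160-7693459 on the minus strand for Asns, chr6:55037751-55038050 on the plus strand for Gars and chr3:50443564-50443863 on the minus strand for Slc7a11. Each is written along the gene, with the matches in capitals.
Chac1: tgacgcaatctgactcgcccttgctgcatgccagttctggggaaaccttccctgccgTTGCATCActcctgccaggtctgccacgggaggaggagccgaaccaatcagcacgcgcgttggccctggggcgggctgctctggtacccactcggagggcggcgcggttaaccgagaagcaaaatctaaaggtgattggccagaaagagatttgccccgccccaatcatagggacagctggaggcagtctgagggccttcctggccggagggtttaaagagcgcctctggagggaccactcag
Asns: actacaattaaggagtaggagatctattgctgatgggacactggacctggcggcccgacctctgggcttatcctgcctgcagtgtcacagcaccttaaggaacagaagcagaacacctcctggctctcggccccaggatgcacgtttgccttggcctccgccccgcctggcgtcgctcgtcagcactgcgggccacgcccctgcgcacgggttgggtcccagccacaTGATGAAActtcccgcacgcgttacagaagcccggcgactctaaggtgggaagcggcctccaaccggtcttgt
Gars: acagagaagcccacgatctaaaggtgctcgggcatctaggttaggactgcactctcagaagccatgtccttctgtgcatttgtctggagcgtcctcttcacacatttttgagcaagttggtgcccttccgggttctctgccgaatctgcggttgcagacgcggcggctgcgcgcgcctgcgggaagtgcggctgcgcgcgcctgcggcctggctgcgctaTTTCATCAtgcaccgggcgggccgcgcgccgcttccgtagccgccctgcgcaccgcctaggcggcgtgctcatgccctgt
Slc7a11: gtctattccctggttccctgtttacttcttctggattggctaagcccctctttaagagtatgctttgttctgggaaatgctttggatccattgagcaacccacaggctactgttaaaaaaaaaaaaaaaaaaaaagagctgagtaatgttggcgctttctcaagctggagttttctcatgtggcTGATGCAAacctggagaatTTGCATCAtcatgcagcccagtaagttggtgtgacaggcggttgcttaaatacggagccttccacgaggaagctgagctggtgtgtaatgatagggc

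The match began 193 bases before the start in Chac1, 23 in Asns and 30 in Gars, and Slc7a11 had 2 matches, at 66 and 47 bases. Of the 15 tested members with a RefSeq promoter 5 held the motif (33.3%), against 3.97% of all 32851 promoters and 2.81% of those of tested genes. The list was made of genes known as ATF4 targets, so a high share was likely beforehand and does not bear on these arrays. A match is a description of these letters and not a shown binding site.

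Chac1, which breaks down glutathione, measured 8.03 and 5.02 in K5-PIK cells, against 9.61 and 9.39 in K5-YFP cells (-2.97 ± 0.79, adjusted p = 0.025). Asns, asparagine synthetase, measured 7.53 and 5.88, against 8.87 and 8.35 in K5-YFP cells (-1.91 ± 0.60, adjusted p = 0.0478). Gars, the glycine tRNA synthetase, measured 8.86 and 7.97, against 10.34 and 10.14 (-1.82 ± 0.43, adjusted p = 0.0161). In all of them K5-PIK replicate 2 was the lower K5-PIK array, and neither K5-PIK array reached the K5-YFP arrays. Slc7a11, the cystine importer, measured 3.62 and 3.38 in K5-PIK cells, against 5.25 and 4.96 in K5-YFP cells (-1.60 ± 0.34, adjusted p = 0.0104). Of the serine pathway, Psat1 measured 8.44 and 6.15, against 9.59 and 9.25 (-2.12 ± 0.63), and Psph 6.80 and 6.71, against 7.89 and 7.79 in K5-YFP cells (-1.08 ± 0.25). Shmt2, which passes carbon from serine to folate in mitochondria, measured 6.94 and 6.61, against 8.43 and 7.94 (-1.41 ± 0.31). Slc7a11, Shmt2 and Psph, named beyond the rule of 4 genes a list, completed the 7. Atf4 mRNA itself was not called (10.69 and 10.36, against 10.70 and 10.58 in K5-YFP cells), nor was Trib3, a target with the motif (7.07 and 5.48, against 7.79 and 7.74). The calls did not hold without K5-PIK replicate 2, without K5-YFP replicate 1 or with the endothelial covariate. Fewer members were called without K5-YFP replicate 2.

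Some FOXO factors and genes they induce rose. Of 23 tested members, 7 rose, none fell and 16 did not pass the test, against 8.28% higher over all genes. The median was 0.49, with 15 members on the positive side and 8 on the negative. Rbl2, a retinoblastoma relative that holds cells out of cycle, measured 6.77 and 6.85 in K5-PIK cells, against 4.73 and 5.39 in K5-YFP cells (1.75 ± 0.23, adjusted p = 0.00192). Gadd45a, a growth arrest gene, measured 10.00 and 9.57, against 8.34 and 8.42 in K5-YFP cells (1.40 ± 0.24, adjusted p = 0.00503). These 2 are the robust members, and neither had overlapping groups, as on 62.1% of all genes. Txnip, which limits glucose uptake, measured 9.97 and 10.03, against 8.14 and 8.70 in K5-YFP cells (1.58 ± 0.41), and the mitochondrial kinase Pink1 measured 9.20 and 9.23, against 7.37 and 8.13 (1.47 ± 0.27). Foxo3 itself measured 9.93 and 9.97, against 8.93 and 9.0 in K5-YFP cells (0.99 ± 0.20). The other members that rose were the coactivator Cited2 (1.26 ± 0.22) and catalase, Cat (1.00 ± 0.23), which, like Foxo3, were named to complete the 7. The count was 4 with the endothelial covariate, 3 without K5-PIK replicate 2 and 2 without K5-YFP replicate 1. The FOXO motif TGTTTAC, searched on both strands, lay in the promoters of 3 of 19 members (15.8%). The share was 3.65% over all promoters and 3.2% over tested genes. Among the 7 that rose it was found in Txnip. The list was made of FOXO factors and genes known to be induced by them, so its share does not bear on these arrays.

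Of 23 PI3-kinase and AKT pathway components 1 rose and 2 fell, against 8.28% and 8.02% of all genes. Pik3r1, the regulatory subunit that binds the catalytic subunit, measured 10.43 and 10.96 in K5-PIK cells, against 9.07 and 9.35 in K5-YFP cells (1.48 ± 0.30, adjusted p = 0.00847). Eif4ebp1, the translation inhibitor that mTORC1 switches off, measured 7.71 and 6.58, against 8.85 and 8.63 (-1.59 ± 0.43). Rheb, the GTPase that activates mTORC1, measured 8.61 and 8.19, against 9.27 and 9.13 in K5-YFP cells (-0.80 ± 0.24). The groups did not overlap for any of these genes, as for 13 of the 23 components and 62.1% of all genes. The adaptor Irs1 missed the threshold (6.48 and 7.27, against 5.61 and 5.97 in K5-YFP cells, 1.09 ± 0.35, adjusted p = 0.0541) and is named after its value was seen. Of 16 inhibitors of the pathway 3 rose and 2 fell. Deptor, an inhibitor of mTOR (1.10 ± 0.21), the phosphatase Inpp5k (1.01 ± 0.18) and the pseudokinase Trib1 (0.96 ± 0.19) rose. Phlda3, which competes with AKT for membrane lipid (-1.16 ± 0.29), and the lipid phosphatase Inpp4a (-0.94 ± 0.24), named to complete the count, fell. Of both lists 0 members stayed called without K5-PIK replicate 2, without K5-YFP replicate 1 or with the covariate.

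Immediate early genes, which are switched on within minutes of growth factor or stress and also by tissue dissociation, were higher. All 15 tested members were on the positive side, 9 rose, and the median was 0.84. Over all 13150 genes 8.28% rose, and 7663 were on the positive side. Junb measured 9.35 and 9.85 in K5-PIK cells, against 8.04 and 8.59 in K5-YFP cells (1.29 ± 0.27, adjusted p = 0.0103). Jun measured 10.82 and 11.01, against 9.89 and 9.99 in K5-YFP cells (0.98 ± 0.19, adjusted p = 0.00751). Gadd45b rose by 1.17 ± 0.27 and Ier2 by 1.06 ± 0.24. The list mean was 10.69 and 10.91 in K5-PIK cells, against 9.99 and 10.15 in K5-YFP cells, and on the remaining sorted arrays it reached 10.50. The calls did not hold without K5-PIK replicate 2 or without K5-YFP replicate 1. With the endothelial covariate 2 members were called. The part of dissociation in these values was not tested.

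**Figure D3:**
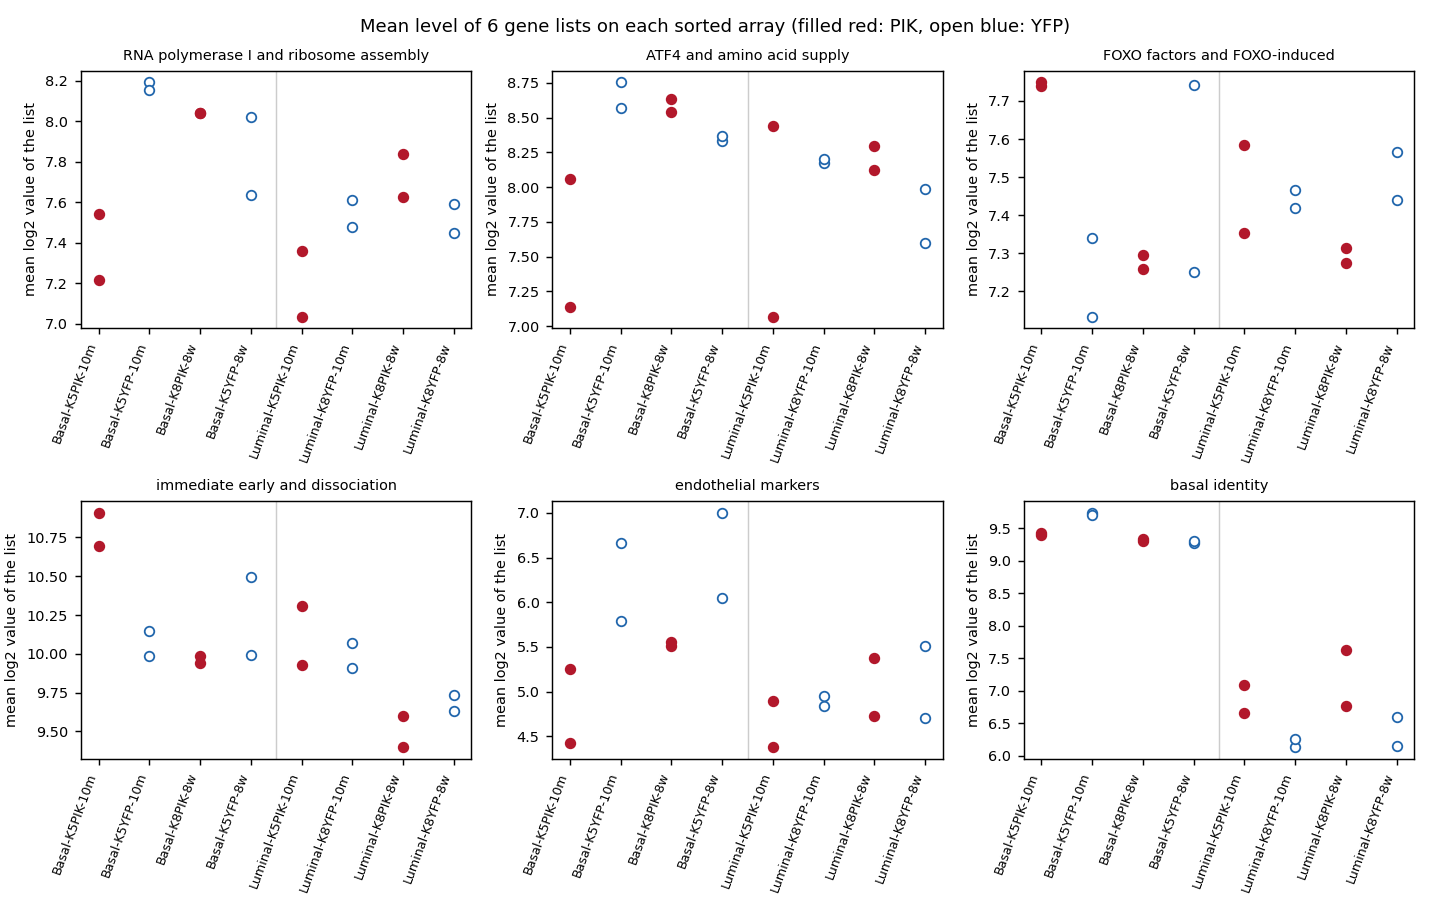
Mean log2 value (vertical axis) of 6 gene lists on each of the 16 sorted arrays, 2 points a group, with PIK groups in filled red and YFP groups in open blue and basal gates left of the grey line. At the left of each panel, K5-PIK basal cells lie below K5-YFP basal cells for ribosome assembly (7.54 and 7.22, against 8.19 and 8.15) and above them for immediate early genes (10.69 and 10.91, against 9.99 and 10.15).

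Of 15 genes of basal identity 3 fell and none rose, and 12 did not pass the test, against 8.02% lower over all genes. The list had a median of -0.17 and a mean of 9.40 and 9.44 in K5-PIK cells, against 9.74 and 9.70 in K5-YFP cells. Snai2, a transcription factor of basal and mesenchymal cells, measured 6.26 and 6.19, against 7.23 and 7.32 in K5-YFP cells (-1.05 ± 0.16, adjusted p = 0.00277), and was robust. It was the 1 member still called without K5-PIK replicate 2, without K5-YFP replicate 1 or with the endothelial covariate. The EGF-family ligand Nrg1 (-1.57 ± 0.47) and the adhesion adaptor Tns3 (-0.66 ± 0.19) fell as well. Of 12 contractile genes limma called 0, and 2 had an unadjusted p under 0.05. In the list of hemidesmosome and laminin-332 genes, 1 of 10 fell, the integrin chain Itgb1 (-0.60 ± 0.16). Itgb1 is not itself a hemidesmosome chain, and no other member was called.

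Among luminal genes, 1 of 16 identity genes rose, the epithelial transcription factor Elf3 (8.12 and 8.14, against 6.60 and 7.44 in K5-YFP cells, 1.11 ± 0.27). Of 9 luminal progenitor genes 3 rose, against 8.28% of all genes. Elf5, the regulator of alveolar fate, measured 4.53 and 4.61 in K5-PIK cells, against 3.43 and 3.75 in K5-YFP cells (0.98 ± 0.28, adjusted p = 0.0318). It averaged 7.82 in luminal K5-PIK cells and 4.63 in YFP basal cells at 8 weeks. Both of its K5-YFP values at 10 months lay below the 40th percentile of the arrays, which was 3.89 to 3.99. The Notch target Hey1 (1.36 ± 0.43) and the tetraspanin Tspan8 (1.17 ± 0.37) rose too, and the receptor Kit did not pass (0.50 ± 0.30). Of 12 milk genes 4 rose, namely Csn3 (1.49 ± 0.39), Lalba (1.22 ± 0.36), Mfge8 (0.79 ± 0.20) and Wap (0.63 ± 0.18). In YFP basal cells at 8 weeks Csn3 averaged 10.22 and Lalba 7.85, against 10.17 and 6.63 in K5-PIK cells. Mfge8 and Wap averaged lower in those 8-week cells (10.57 and 4.32) than in K5-PIK cells (10.86 and 4.65), as did Hey1 and Tspan8. The progenitor calls did not hold without K5-PIK replicate 2, without K5-YFP replicate 1 or with the covariate. Of the milk genes 1 was called with the covariate. Most milk gene calls were lost without K5-PIK replicate 2 or without K5-YFP replicate 1. Of 10 hormone-sensing genes limma called 0, and 0 had an unadjusted p under 0.05, with Esr1 at 0.65 ± 0.33 and Pgr at 1.23 ± 0.64.

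Wider lineage sets came from normal cells at 8 weeks. Their arrays are not among the 4 compared, but the fit pools the spread over all 16 sorted arrays. The sets and the calls are thus not fully independent. Genes called (adjusted p under 0.05 by limma) and at least 2-fold apart between YFP basal and luminal cells formed the sets. The basal set held 829 genes and the luminal set 1252. In K5-PIK cells 131 luminal set genes rose (10.5%) and 31 fell (2.48%), against 8.05% and 8.17% of the 11069 genes in neither set. The luminal set had a median of 0.32, and 74.8% were on the positive side, against 57.7% of the genes in neither set. Of the basal set, 67 rose (8.08%) and 119 fell (14.4%), with a median of -0.14. The mean of the luminal set was 5.91 and 5.98 in K5-PIK cells, against 5.49 and 5.80 in K5-YFP cells, while it was 5.84 and 6.19 in YFP basal cells at 8 weeks and 7.28 to 7.54 in YFP luminal cells. The luminal set mean of K5-PIK cells thus lay above that of K5-YFP cells at 10 months. It was within the values of YFP basal cells at 8 weeks, but low values on those arrays helped choose the set. The 8-week level is thus not an independent reference. Of the 10 basal set genes with the largest falls, 5 are S1pr1, Cd93, Sele, Thbd and Tie1, which moved with the endothelial list. Without K5-PIK replicate 2 the luminal set genes that rose numbered 10, and without K5-YFP replicate 1 they numbered 6.

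Secreted factors changed in both directions. The counts of the lists that follow are read against 8.28% higher and 8.02% lower over all genes. Of 11 IGF axis genes 2 rose and 3 fell. Igfbp5, an IGF-binding protein of involuting gland, measured 11.14 and 10.87 in K5-PIK cells, against 9.04 and 9.50 in K5-YFP cells (1.73 ± 0.28, adjusted p = 0.00384). In YFP basal cells at 8 weeks it averaged 10.63, above both K5-YFP arrays at 10 months. Pappa, the protease that frees IGF from binding proteins, measured 4.83 and 4.29, against 7.12 and 6.80 in K5-YFP cells (-2.40 ± 0.32, adjusted p = 0.00196). Both were robust, and neither had overlapping groups, as on 62.1% of all genes. Igfbp2 rose (1.50 ± 0.31), while the RNA-binding Igf2bp3 (-1.22 ± 0.34) fell, as did Igf2 (-1.08 ± 0.34), named to complete the count. Of 24 cytokines 4 fell and 1 rose. Besides Il6, these were the neutrophil chemokine Cxcl1 (-1.61 ± 0.37), Il11 (-1.57 ± 0.40) and, to complete the count, the macrophage factor Csf1 (-1.19 ± 0.31). The chemokine Ccl7 rose, at 7.07 and 6.47, against 5.03 and 5.10 in K5-YFP cells (1.70 ± 0.23, adjusted p = 0.00204).

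Of 12 EGF receptor family genes 3 fell, Ereg, Nrg1 and the receptor Erbb2 (-0.68 ± 0.22). Of 16 Notch genes 3 rose, the targets Hes1 (1.40 ± 0.41) and Hey1 and the receptor Notch1 (0.56 ± 0.17). Of 29 Wnt genes 2 rose, Fzd8 (1.36 ± 0.34) and Porcn (0.83 ± 0.24), and 2 fell, Wnt5b (-1.09 ± 0.26) and Rspo1 (-0.88 ± 0.22), in each direction no more than the share over all genes. Of 24 TGF-beta family genes Id2 rose (1.67 ± 0.31), and Inhba (-1.37 ± 0.40), Tgfbr2 (-0.99 ± 0.23) and Bmp2 (-0.94 ± 0.28) fell. Of 27 axon guidance and GDNF genes Efna1 rose (1.01 ± 0.31), and Slit2 (-1.45 ± 0.23), Ret (-0.85 ± 0.23) and its ligand Gdnf (-0.84 ± 0.15) fell. Of 15 ERK feedback genes the transcription factor Etv4 fell by 1.00 ± 0.30. Of 20 developmental factors Id2 and Irx3 (0.82 ± 0.16) rose.

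Of 17 p53 target genes 2 rose and 5 fell. The exonuclease Aen measured 7.64 and 7.05 in K5-PIK cells, against 9.37 and 9.71 in K5-YFP cells (-2.20 ± 0.27, adjusted p = 0.0015), and was robust. The receptor Eda2r (-1.34 ± 0.27) and Phlda3 were among those that fell, while the antiproliferative Btg2 (1.40 ± 0.31) and, to complete the count, the apoptosis gene Bbc3 (0.68 ± 0.15) rose. Of 25 proliferation genes 1 fell, the replication helicase subunit Mcm7 (6.01 and 5.67, against 7.42 and 6.99 in K5-YFP cells, -1.37 ± 0.28). Of 15 cyclins and their inhibitors Ccnd1, cyclin D1, fell (8.48 and 8.26, against 9.48 and 9.45, -1.09 ± 0.21), and Mycn rose (1.00 ± 0.19). Of 15 mesenchymal transition genes 3 fell, Snai2, the repressor Zeb1 (-1.76 ± 0.54) and E-cadherin, Cdh1 (-1.05 ± 0.29), the epithelial gene of that list.

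In metabolism, 2 of 16 glycolysis genes rose, Pfkm (1.26 ± 0.34) and Aldoc (1.15 ± 0.32), and 2 of 15 fatty acid genes, the desaturases Fads1 (1.20 ± 0.36) and Fads2 (0.71 ± 0.22). Of 17 sterol synthesis genes Sqle fell (-1.01 ± 0.32). Of 14 hypoxia genes the carbonic anhydrase Car12 rose (8.26 and 7.99, against 6.11 and 5.97 in K5-YFP cells, 2.08 ± 0.34, adjusted p = 0.00413), as did Bnip3 (1.09 ± 0.29), and Hif1a fell (-0.85 ± 0.27). Of 17 carbonic anhydrases, transporters and catabolic enzymes 1 rose, Car12, and 4 fell, among them Bcat1, the drug transporter Abcb1a (-1.41 ± 0.32) and the arginine transporter Slc7a2 (-1.39 ± 0.28). The groups did not overlap for Car12, as on 62.1% of all genes, and Car12 was robust.

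Of 10 MHC class I genes the non-classical H2-T23 rose (9.90 and 9.86, against 7.61 and 8.39 in K5-YFP cells, 1.88 ± 0.25, adjusted p = 0.00184), as did the immunoproteasome subunit Psmb9 (0.64 ± 0.18), and the regulator Nlrc5 fell (-1.32 ± 0.40). Of 13 interferon genes Rsad2 fell (-1.99 ± 0.34). Of 19 matrix proteases and inhibitors Mmp11 (1.71 ± 0.42) and Timp2 (0.93 ± 0.21) rose, and the membrane protease Adam19 fell (4.09 and 4.00, against 6.53 and 6.07 in K5-YFP cells, -2.26 ± 0.26, adjusted p = 0.00134). Of 19 basement membrane genes Col4a6 rose (0.84 ± 0.24) and perlecan, Hspg2, fell (-1.62 ± 0.33). Of 15 squamous genes the transglutaminase Tgm1 (1.36 ± 0.30) and Krt10 (0.93 ± 0.26) rose. Of the genes named for the lists from the IGF axis on, Igfbp5, Pappa, Il6, Ccl7, Gdnf, Aen, Snai2, Car12, Bcat1, H2-T23 and Adam19 were robust, and the other called ones lost their call without at least 1 array or with the endothelial covariate.

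**Figure D4:**
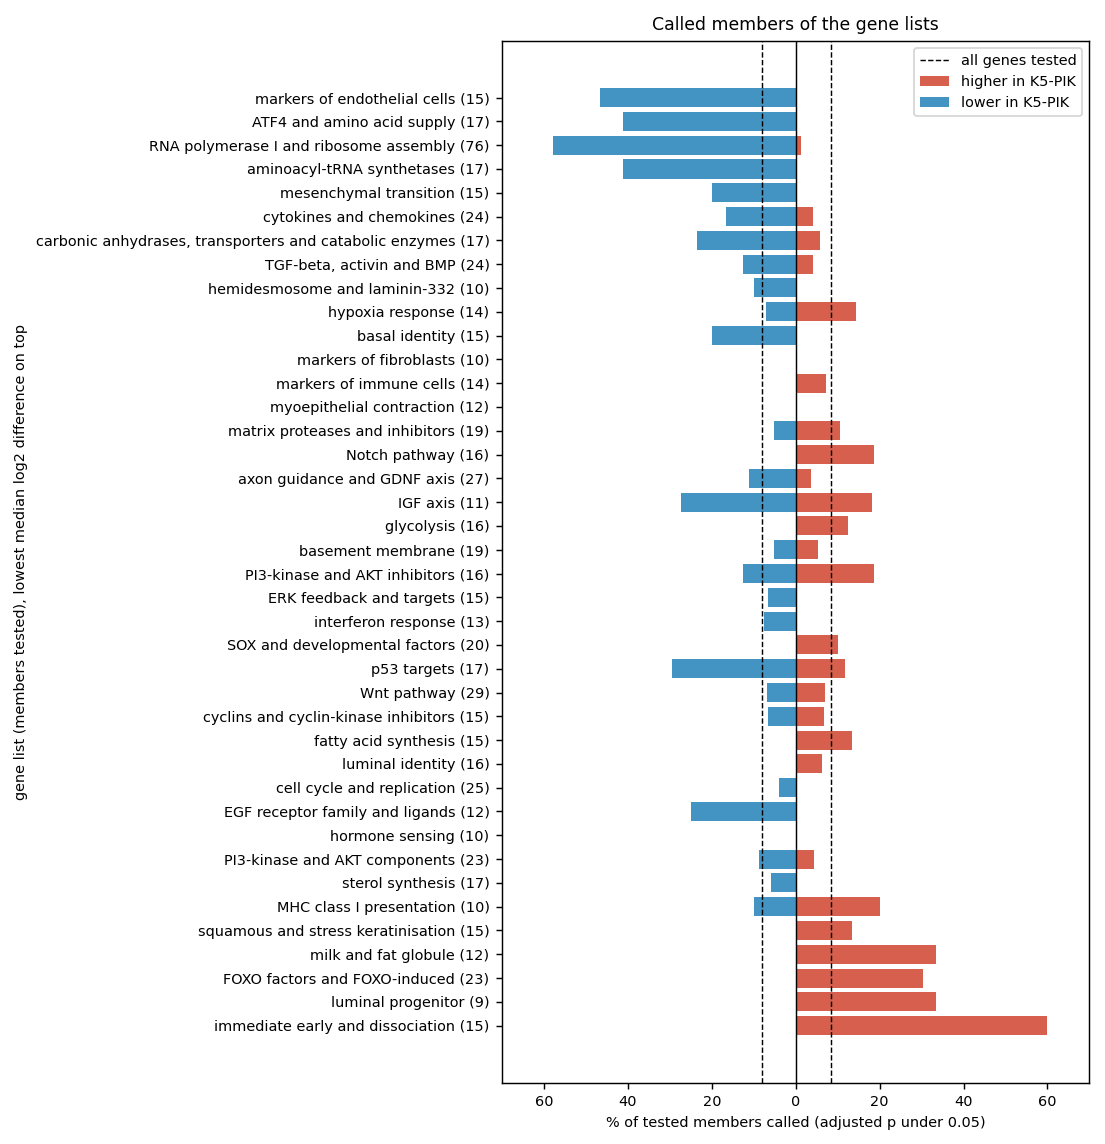
Percent of the tested members of each gene list that were called (horizontal axis), lower in K5-PIK basal cells to the left and higher to the right, with lists in the order of their median log2 difference, lowest on top. Dashed lines mark all 13150 tested genes (8.02% lower, 8.28% higher), and lists with fewer than 9 tested members are not drawn.

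The same genes were then read in 2 contrasts at 8 weeks that share none of the 4 compared arrays. The fit pools the spread over all 16 sorted arrays. One set K8-PIK cells in the basal gate, from K8CREERT2/PIK3CA-H1047R/RosaYFP mice, against YFP basal cells of K5CREERT2/RosaYFP mice, and 55 genes were called (0.418%). The other set K8-PIK luminal cells against K8-YFP luminal cells of K8CREERT2/RosaYFP mice, and 46 were called (0.35%). The first contrast shares the basal gate with the 10-month comparison but differs in time, in the Cre driver of its PIK cells and in their cells of origin. The second differs in time, Cre driver and gate, so the parts of these cannot be told apart. Across the 13150 genes the 10-month differences correlated with those of the 8-week basal gate at -0.286 and with those of the luminal gate at -0.238, as a description over genes measured on 1 platform. Of the 1089 genes higher at 10 months 35.9% were on the positive side in the 8-week basal gate, against 52.2% of all genes, and of the 1054 lower genes 18.7% were on the negative side, against 47.8%. In luminal cells these shares were 28.7%, against 44.1% of all genes, and 35.1%, against 55.9%. Among the basal-gate groups K5-PIK cells lay beyond the other 3 for 94.6% of the higher and 91.9% of the lower genes. K5-YFP cells at 10 months lay beyond the other 3, on the opposite side, for 81.8% and 69.4%. Calls pick genes on which these 2 groups lie apart, so these shares are a description.

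The ribosome assembly list had a median of 0.21 in the 8-week basal gate and 0.23 in luminal cells, against -0.89 at 10 months. The ATF4 list had medians of 0.28 and 0.47 there, against -1.08, and the immediate early list -0.18 and -0.16, against 0.84. The median of endothelial markers was -1.06 in the 8-week basal gate, the same sign as at 10 months (-1.60), and 0.06 in luminal cells. In the luminal gate at 10 months the ribosome assembly mean was 7.36 and 7.04 in K5-PIK cells, against 7.61 and 7.48 in K8-YFP cells. These 2 groups differ in Cre driver too. K5-YFP basal cells at 10 months (8.19 and 8.15) had the highest ribosome assembly mean of the 8 sorted groups.

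The difference between contrasts was tested directly. It was called for 1805 genes against the 8-week basal gate (13.7%), 717 in the positive and 1088 in the negative direction. Quantile normalization gave 1108 positive and 789 negative, so the prevailing direction depended on the scaling. Against luminal cells the difference was called for 1454 (11.1%), 821 positive and 633 negative. Ereg differed most from the 8-week basal gate (-7.03 ± 0.87, adjusted p = 0.00147), and it fell in K5-PIK cells (-3.42 ± 0.62) and was higher in K8-PIK cells of the basal gate (3.61 ± 0.62). Bcat1 differed by -4.35 ± 0.46 from the basal gate and by -3.64 ± 0.46 from the luminal gate. Its mean was 4.13 in K5-PIK cells and 7.95 in K5-YFP cells, and it was 6.53 in K8-PIK and 6.00 in YFP cells of the 8-week basal gate. Foxa1 differed by -4.38 ± 0.55, with means of 7.97 in K8-PIK cells and 4.25 in YFP cells of the 8-week basal gate.

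**Figure D5:**
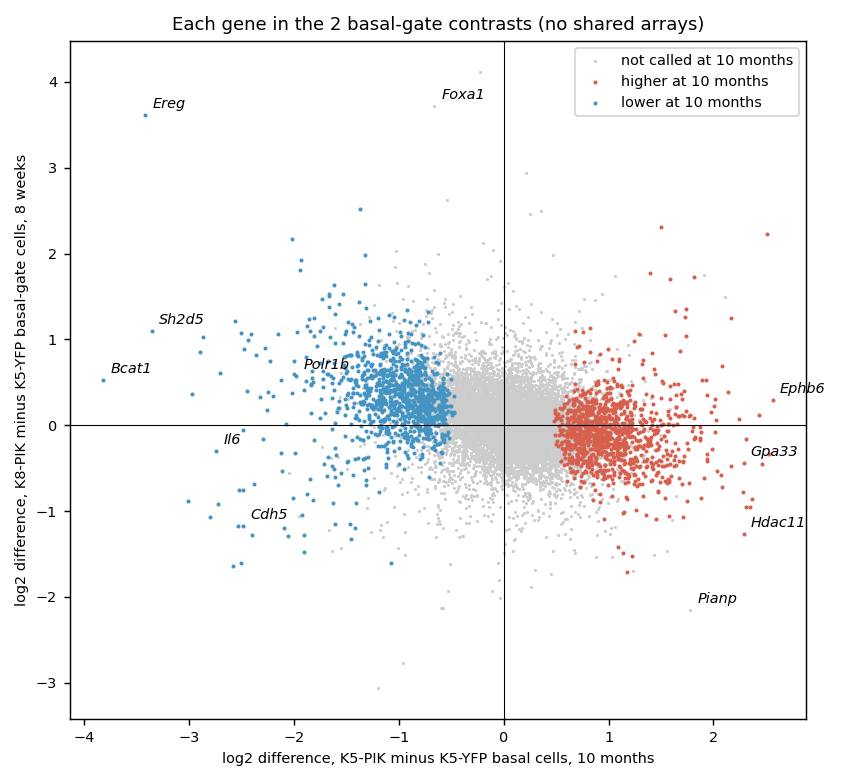
Each of 13150 genes by its log2 difference between K5-PIK and K5-YFP basal cells at 10 months (horizontal axis) and between K8-PIK and K5-YFP cells of the basal gate at 8 weeks (vertical axis). Called genes are red (higher at 10 months) or blue (lower), others grey, and Ereg sits at the upper left with -3.42 and 3.61.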

How the data were processed

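RNA of sorted mouse mammary cells was measured on Affymetrix arrays. The deposited log2 values of 28 arrays cover 45141 probe sets each and were made with R 2.14.0, per the submitters' processing notes. Background correction, normalization and genome build are not given in the sources used here. Of the probe sets, 28898 carry 1 gene symbol in the platform annotation, 551 several and 15692 no entry, and 28689 matched RefSeq by gene identifier. Each of 17097 genes was represented by its brightest probe set on average over the arrays (7180 genes had more than 1). A gene was tested if above its array's 40th percentile on at least 2 arrays. Trp53 and a few other genes were not analysed here.

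One mean per group was fitted with limma 3.58.1 (R 4.3.3) to the 16 sorted arrays (8 groups), with empirical Bayes moderation and Benjamini-Hochberg adjustment over all tested genes. The script was tested on simulated data. With 2 arrays a group, the number of arrays limits the precision. No batch or scan time is labelled. Same-numbered arrays deviated with a correlation of 0.024, and nothing in the labels pairs them. Named genes were the 15 largest non-overlapping rises and falls, up to 4 called members of each list, 5 per direction in each difference, and 13 fixed genes. Others are marked where named. The genes, the 42 lists and the tests were chosen with earlier results of these data known, and 2 lists were added later. Alternatives were other arrays in the fit, filters, probe set rules, quantile normalization, a trended prior, a replicate block, array weights, an endothelial covariate, other references, and each array left out.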

Additional observations from a re-analysis of the deposited data

Results flagged for a closer look

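In 20 cases a gene's K5-PIK against K5-YFP difference at 10 months was set apart by a test of its difference from an 8-week PIK contrast, and these are the 5 largest in each direction. Against K8-PIK and YFP cells of the 8-week basal gate, the negative ones were Ereg (-7.03 ± 0.87), Sh2d5 (-4.46 ± 0.93), Foxa1 (-4.38 ± 0.55), the alarmin Il33 (-4.35 ± 0.95) and Bcat1 (-4.35 ± 0.46). The positive ones were Pianp (3.94 ± 0.83), Hdac11 (3.56 ± 0.96), Gucy1a1 (3.30 ± 0.73), Fam20a (3.26 ± 0.57) and Cyp2d22 (3.23 ± 0.47). Foxa1 (-0.66), Il33 (-0.23) and Pianp (1.78, adjusted p = 0.0549 by limma) were not called at 10 months, and their 8-week values were 3.72, 4.12 and -2.16.

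Against luminal K8-PIK and K8-YFP cells at 8 weeks, the negative differences were Sh2d5 (-5.07 ± 0.93), Mpp7 (-4.23 ± 0.73), Bcat1 (-3.64 ± 0.46), Oaf (-3.64 ± 0.76) and Frmd4a (-3.60 ± 0.48). The positive ones were Pcp4 (4.33 ± 1.03), Pianp (4.01 ± 0.83), Hdac11 (3.72 ± 0.96), Syn2 (3.70 ± 0.74) and the neurotrophin Bdnf (3.49 ± 0.46). Pianp, Pcp4, Syn2 and Bdnf were not called at 10 months, at 1.78, 1.21, 0.78 and 0.90. Frmd4a fell in K5-PIK basal cells (6.58 and 5.86, against 8.78 and 8.57 in K5-YFP cells) and was robust. Cre driver and age, and gate for luminal cells, differ along with the contrast and cannot be told apart.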

How the results depend on the processing

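The 2143 genes called between K5-PIK and K5-YFP basal cells became 1045 with all 28 arrays, 581 with the endothelial covariate, 2793 with a replicate block and 985 at a 2-fold minimum, and with an array left out they ranged between 343 and 1952 (lowest without K5-YFP replicate 1). The same settings moved the gene lists. The 44 ribosome assembly genes that fell became 28 with all 28 arrays, 12 with the covariate and 11 to 46 with an array left out. The 7 fallen tRNA synthetases became 2 with the covariate, 4 with both YFP basal groups as reference and 0 to 8 with an array left out. The 7 fallen ATF4 genes became 4 with all 28 arrays, 0 with the covariate and 0 to 7 with an array left out. The 7 FOXO genes that rose became 4 with the covariate and 2 to 7 with an array left out. The 9 immediate early genes became 3 with all 28 arrays, 2 with the covariate and 0 to 6 with an array left out. The 7 fallen endothelial markers became 4 with all 28 arrays, 0 with the covariate, which is their own mean, and 0 to 7 with an array left out. At an array left out, the arm with 1 array is assumed to vary like the other groups.

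Luminal set genes that rose (131) became 65 with all 28 arrays, 246 with the replicate block, 60 with the covariate, 13 for sets at least 4-fold apart and 6 to 126 with an array left out. Those that fell (31) became 6, 3 with the covariate, 5 for the 4-fold sets and 5 to 43 with an array left out. Basal set genes that rose (67) became 11 with all 28 arrays, 15 with the covariate, 20 for the 4-fold sets and 9 to 54 with an array left out, and those that fell (119) became 44, 20, 35 and 26 to 112. The 1805 differences from the 8-week basal gate became 716 with all 28 arrays and 513 to 1793 with an array left out. The 1454 differences from luminal cells became 359 with all 28 arrays, 2221 with the replicate block, 569 with the covariate and 200 to 1522 with an array left out. The block used the array numbers, which the labels do not describe as pairs. A deviation correlation of 0.024 from 2 pairs of arrays cannot show whether same-numbered arrays belong together. The block moved no other count by over 1.5 times.

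Of named genes, the sign turned for Acta2 (0.49), Krt14 (0.27), Lgr5 (0.083) and Pecam1 (0.0051) with the covariate. It turned for Krt18 (-0.21), Krt8 (-0.033), Lalba (-0.0042), Lgr5 (0.076) and Atf4 (0.042) with both YFP basal groups as reference, and for Atf4 (0.044) with the mean of a gene's probe sets. With an array left out Krt18 ranged between -0.12 (without K5-YFP replicate 1) and 0.54, Lgr5 between -0.48 and 0.25 (without K5-PIK replicate 1), and Atf4 between -0.27 and 0.055 (without K5-PIK replicate 2). Of these genes, Lalba and Pecam1 were called in the fit with all arrays. Over all alternatives, 411 values of named genes lost their call, 13 gained one and 1598 kept direction and call. The cause of these changes was not tested. Genes near background have only small measured ranges, which limits what these arrays can show for them.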
